A study of Arabidopsis thaliana with 17 samples.

Results

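The comparison described here sets roots of the Arabidopsis thaliana line KO3 against roots of wild-type Col-0 (WT). NBR1 is a selective autophagy cargo receptor: it binds ubiquitinated cargo and, through ATG8 proteins on the growing membrane, carries that cargo into autophagosomes, which deliver it to the vacuole. KO3 carries a homozygous deletion in NBR1 that was made with CRISPR/Cas9, and the transgene was afterwards crossed out. The deletion is described as lying in the first part of the gene, with the rest left in place, and KO3 is 1 line. Both lines grew hydroponically in 0.5x Hoagland medium in short days, and roots were taken from plants 4 weeks old, each RNA sample holding material of at least 3 plants. No treatment was applied, and the hour of harvest is not given in the sources used here. The members are the 3 KO3 root arrays (biological replicates 1, 2 and 3) and the 2 WT root arrays (biological replicates 1 and 3), 5 of the 17 arrays of the series. All 18107 named probe sets were compared. The 3 root arrays of a second deletion line, KO1, entered the fit to share the estimate of the spread.

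The values are RMA signals on the log2 scale, on which 1 unit is a 2-fold difference. A probe set was called where limma's moderated test gave an adjusted p under 0.05 over all 18107 probe sets. Array medians lay between 2.61 and 2.67. WT replicate 1 stood apart: its mean correlation with the other root arrays was 0.978, against 0.983 to 0.987 for the other 7, and its spread over probe sets was the smallest (SD 1.91, against 1.95 to 2.05). This matters for every call below, since no probe set passed the threshold when that array was left out. The tissue label was checked with marker genes. RCA (Rubisco activase) lay between 2.93 and 4.66 in roots and between 10.14 and 11.26 in shoots, and the root beta-glucosidase gene PYK10 lay between 9.37 and 10.15 in roots and between 4.45 and 6.55 in shoots.

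The CRISPR guides are shown because they define what was removed. The study used guide G144 together with G2 or with G3, and which pair gave KO3 is not stated in the sources used here. The target gene, NBR1 (AT4G24690), is on chromosome 4. The capitals mark the 10 bases nearest the PAM end of each 20-base guide.
G144: ttacgagaaaAGCGGATTAC
G2: ggaaggaacaTCCCTGCTCA
G3: aattgagagcTGCCCTAGCT

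NBR1 gave the largest difference among the 18107 probe sets. Its signal was 3.82, 4.59 and 3.87 in the 3 KO3 root arrays and 7.41 and 7.23 in the WT root arrays. All KO3 values lay far below both WT values. The log2 change was -3.23 ± 0.24 (SE; 95% confidence interval -3.75 to -2.71), which is 9.36-fold lower, with an adjusted p of 0.000683 in limma. An exact permutation test was not run for NBR1. With 3 arrays against 2 and both tails counted equally, its p cannot fall below 0.2. NBR1 was still above the median of its array in every KO3 root, whereas in KO3 shoots it lay between 1.54 and 1.81. Which probes of the set lie inside the deletion is not known here, so the remaining signal was not assigned to a transcript. In KO1 roots, which share the WT arrays, NBR1 lay between 3.26 and 3.70.

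In KO3 roots 22 probe sets were called higher (0.121% of those tested) and 17 lower (0.0939%), 39 in all (0.215%). The genes called higher included stress-protective genes of the cold and drought response, the cytokinin genes RR5 and CYP735A2, and the clock gene GI. The genes called lower were led by NBR1, the clock-related gene RVE2 and the transcription factor gene bZIP58. Only 12 of the 39 carry a gene symbol, 9 higher and 3 lower. Another 26 carry a locus code alone, 12 higher and 14 lower, and 1 probe set (13541373, log2 change 1.18) stands for several genes. The sources describe 3 of those locus codes. Of the 12 with a symbol 9 are named only by the supplementary tables (NBR1, RVE2, LTI78, SIP1, ERD10, COR413-PM1, RR5, CYP735A2 and GSTF11). Those tables list genes that had changed in the overexpression line, and 1.49% of the 603 probe sets they name were called, against 0.171% of the 17504 named by the platform table. Of the 39, 5 are in the study's list of ABA-regulated genes, 4 of them higher and 1 lower, while 18 higher and 16 lower are outside it. Of that list 241 genes were measured. At an unadjusted p under 0.05 and at least 1.5-fold, 9.96% of them were higher and 3.32% lower, beside 2.4% and 1.84% of all probe sets. The median log2 change over all probe sets was 0.002.

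**Figure D1:**
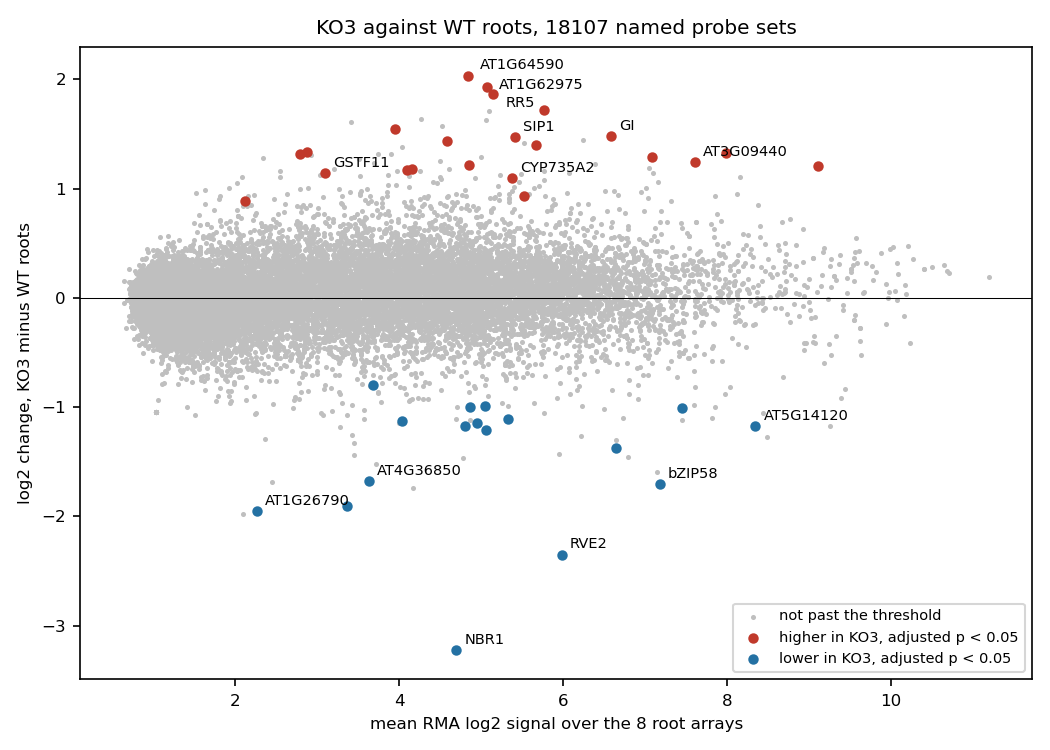
Log2 change, KO3 minus WT roots (vertical axis), against the mean RMA log2 signal over the 8 root arrays (horizontal axis), 1 point for each of 18107 named probe sets. Red points are the 22 called higher and blue points the 17 called lower, and NBR1 lies lowest at -3.23.

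All 39 had every KO3 array beyond both WT arrays, a pattern that 12.4% of all probe sets showed upward and 11.8% downward. The calls rest on few arrays. Without WT replicate 1 none of the 39 passed, although no direction changed: the rises then ran from 0.90 to 2.26 and the falls from -0.78 to -3.14. Without KO3 replicate 2, and likewise without KO3 replicate 3, NBR1 alone passed. Without WT replicate 3 the counts were 47 higher and 61 lower, without KO3 replicate 1 21 and 8, and without KO1 replicate 1 or 2, which serve only the estimate of the spread, 3 and 7 or 9 and 10. WT replicate 1 lay below WT replicate 3 in 15 of the 22 called higher, and above it in 10 of the 17 called lower.

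**Figure D2:**
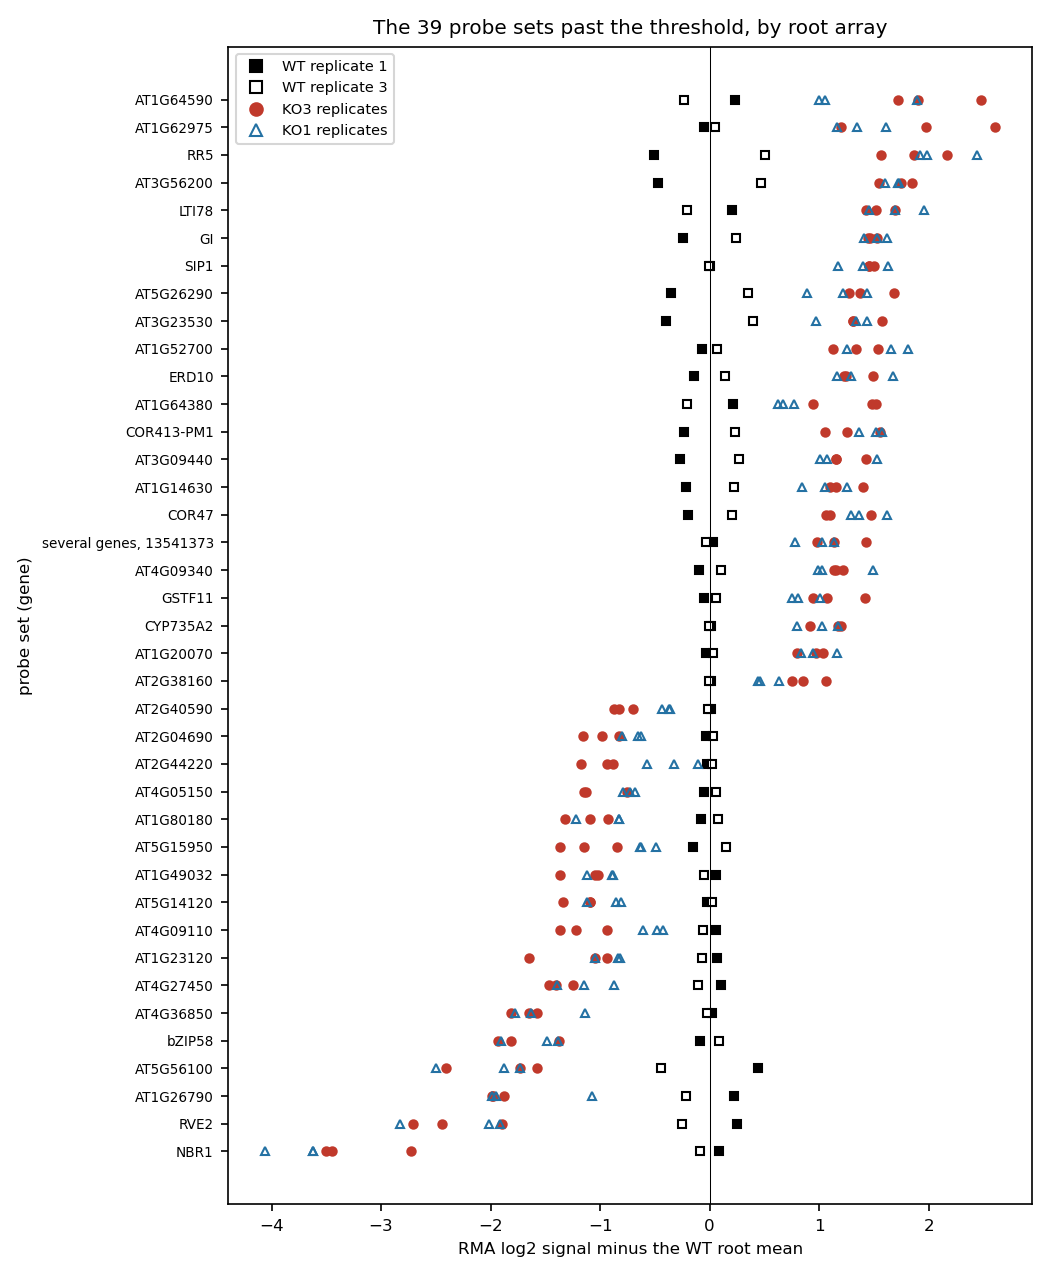
RMA log2 signal minus the WT root mean (horizontal axis) for the 39 called probe sets (vertical axis), by array. Squares are WT replicates 1 (filled) and 3 (open), red circles the 3 KO3 arrays and blue triangles the 3 KO1 arrays; every red circle lies beyond both squares.

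Clock-associated genes changed in opposite directions. The plant circadian clock is built from transcription factors expressed at different times of day, and in roots it sets the timing of much gene expression. RVE2 encodes a MYB-like factor of the REVEILLE family, related to the morning clock factors. Its signal was 5.0, 5.81 and 5.27 in KO3 and 7.96 and 7.46 in WT, so that the groups lay well apart. It fell by 2.35 ± 0.30 (log2, SE; adjusted p = 0.0213), or 5.10-fold. GI (GIGANTEA), which links the clock to photoperiodic flowering and to the degradation of TOC1, was at 6.99, 6.92 and 6.91 in KO3 and at 5.22 and 5.70 in WT. The KO3 values were close together and all above WT, and the rise was 1.48 ± 0.16 (adjusted p = 0.0127). Of the 8 clock genes measured of 39 listed, these 2 passed and 6 did not, beside 0.215% of all probe sets called. Only GI is named by the platform table. The other 7, RVE2 among them, are named only by the supplementary tables of genes changed in the overexpression line. Of all probe sets that those tables name 1.49% were called, against 0.171% of those named by the platform table. PRR5 differed by 0.34, TOC1 by 0.29, GRP7 by -0.14, ELF4 by -0.06, LKP2 by -0.05 and FKF1 by 0.02, and the median of the list was -0.02. The list as measured holds neither CCA1 nor LHY. As 10476 probe sets without a name were not compared, this does not show that the array lacks those genes.

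Of the 25 lists, that of cold and drought protection held the most called genes. Of 19 measured members of 42 listed, 5 rose, beside 0.121% of all probe sets, none fell and 14 did not pass. At an unadjusted p under 0.05 and at least 1.5-fold 8 were higher, a threshold that 2.4% of all probe sets met upward. The median of the list was 0.50, or 0.35 over the 7 genes named by the platform table, of which COR47 rose. The other 12, with 4 of the 5 called, are named only by the supplementary tables of genes changed in the overexpression line. LTI78 (RD29A), a classic marker of cold, drought and ABA responses, was at 4.43, 4.16 and 4.25 in KO3 and at 2.94 and 2.53 in WT. The rise was 1.55 ± 0.19 (adjusted p = 0.0166). SIP1 (AT5G40390, a raffinose synthase), which makes a protective sugar, was at 5.79, 5.79 and 5.84 in KO3 and at 4.34 and 4.33 in WT. The replicates of each line almost coincided, and the rise was 1.47 ± 0.15 (adjusted p = 0.0127).

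The dehydrin gene ERD10, whose product protects proteins and membranes during water loss, was at 8.20, 8.47 and 8.22 in KO3 and at 6.83 and 7.12 in WT, and rose by 1.32 ± 0.18 (adjusted p = 0.0247). COR47, its neighbour and a similar dehydrin gene, was at 9.18, 9.59 and 9.22 against 7.92 and 8.32, and rose by 1.21 ± 0.19 (adjusted p = 0.034). Both genes were bright on every array, and because they are similar in sequence and their probes were not compared here, their values may not be independent of each other. COR413-PM1, a cold-regulated membrane protein gene, was at 7.10, 7.30 and 7.60 against 5.81 and 6.28 (1.29 ± 0.19, adjusted p = 0.0288). LTI30, another dehydrin gene, had a log2 difference of 1.63, above that of LTI78, but a wide spread (4.54, 6.26 and 5.66 in KO3) and an adjusted p of 0.175. KIN1 (0.21), COR15A (0.35) and COR15B (-0.04), known cold-induced genes, had overlapping groups. KIN2 (0.84, adjusted p = 0.0961) had every KO3 array above both WT arrays. So had 11 of the 19 list members, beside 12.4% of all probe sets. ERD10, LTI78 and SIP1 are also in the study's ABA-regulated list, of which 241 genes were measured. Of these 4 rose and 1 fell, beside 0.121% and 0.0939% of all probe sets, and the median change was 0.02. That list was taken from the study and its values for these lines were known, so it is not independent evidence.

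Of 9 cytokinin genes measured, RR5 and CYP735A2 rose. Cytokinins are adenine-derived hormones that restrain root growth and lateral root formation. Type-A response regulators, which are induced by the hormone, dampen its signalling. RR5, a type-A response regulator gene, was at 5.52, 5.82 and 5.22 in KO3 and at 3.15 and 4.16 in WT. The WT arrays lay 1.01 units apart and still below every KO3 array, and the rise was 1.86 ± 0.29 (adjusted p = 0.034). CYP735A2, which encodes the enzyme that converts isopentenyl-type into trans-zeatin-type cytokinins, was at 5.79, 5.76 and 5.51 in KO3 and at 4.60 and 4.58 in WT (1.10 ± 0.16, adjusted p = 0.0288). Of 39 genes listed 9 were measured, of which these 2 rose, none fell and 7 did not pass, beside 0.121% of all probe sets called higher. The median of the list was 0.96, 8 differences were positive, and 6 were higher at the unadjusted threshold, which 2.4% of all probe sets met. These values lean on how genes got their names: 7 of the 9, RR5 and CYP735A2 among them, are named only by the supplementary tables, which list genes that had changed in the study's overexpression line. The 2 named by the platform table, ARR15 and RR16, had a median of 0.37. Without WT replicate 1 the median of the list was 0.63.

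Among the other cytokinin genes, ARR4, ARR6 and CKX4 had every KO3 array above both WT arrays. ARR4 differed by 1.01 (adjusted p = 0.0564), ARR6 by 0.96 (adjusted p = 0.0942) and CKX4, which encodes a cytokinin oxidase that degrades the hormone, by 1.08 (adjusted p = 0.132). ARR15 (0.65), RR3 (0.57) and RR16 (0.09), which are type-A genes too, had groups that overlapped, as had IPT3 (-0.22), a gene of cytokinin synthesis. All 6 type-A differences measured were positive, with a median of 0.80, or 0.37 over the 2 named by the platform table. Against WT replicate 3 alone the median of the 6 was 0.49 and against WT replicate 1 alone 1.08.

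**Figure D3:**
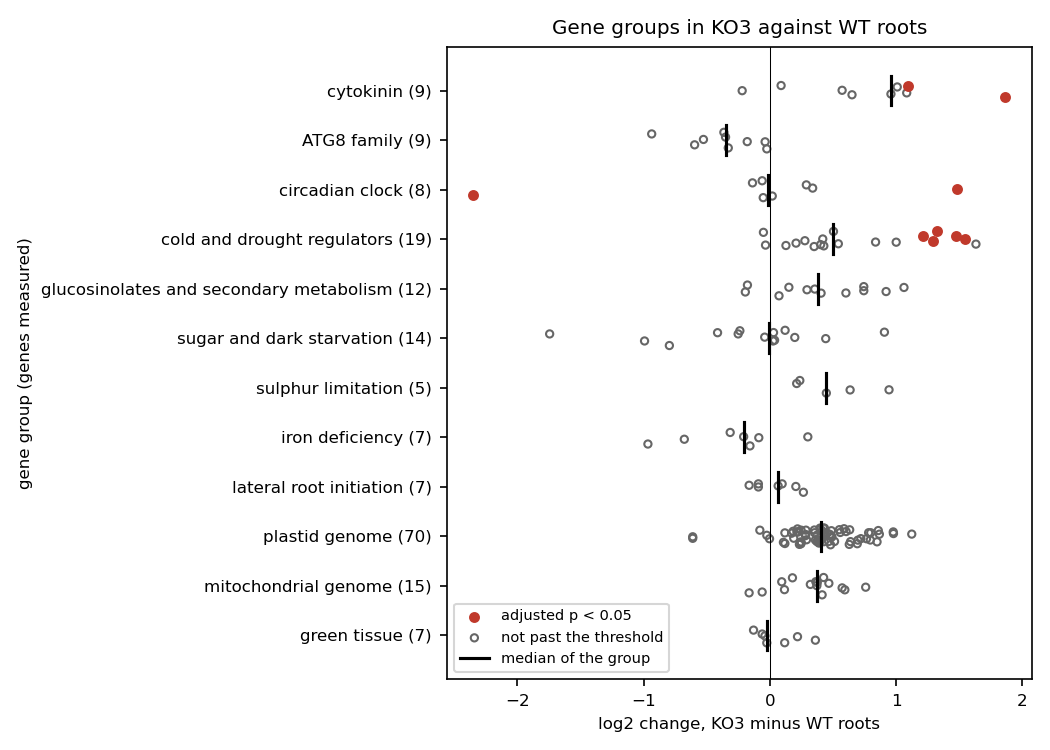
Log2 change, KO3 minus WT roots (horizontal axis), for genes of 12 groups (vertical axis, number of genes measured in brackets). Filled red points passed the adjusted threshold, open points did not, and the bar is the median, 0.96 for cytokinin and -0.35 for the ATG8 family.

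Among the other named genes called, bZIP58 encodes a basic leucine zipper transcription factor. It was at 7.04, 6.48 and 6.60 in KO3 and at 8.33 and 8.5 in WT, and fell by 1.71 ± 0.21 (adjusted p = 0.0166). It was the only one called of 26 genes that names or descriptions mark as bZIP, and the median of these was 0.01. GSTF11, a glutathione S-transferase gene of the phi class, was at 3.29, 3.76 and 3.42 in KO3 and at 2.29 and 2.4 in WT (1.15 ± 0.17, adjusted p = 0.0288). It was the only one called of 18 genes that names or descriptions mark as glutathione S-transferases. Members known by a locus code alone may be missing from both families. AT1G64380, described by the study as the ethylene-responsive transcription factor gene ERF061, was at 2.98, 3.56 and 3.52 against 2.25 and 1.83, and rose by 1.31. ERF53, in the same family of 15, differed by 1.61 with an adjusted p of 0.0575.

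AT5G14120, described as a nodulin family protein gene, was bright and fell by 1.18 ± 0.15 (7.80, 8.04 and 8.04 in KO3 and 9.11 and 9.16 in WT; adjusted p = 0.0213). AT5G56100, described as a glycine-rich oleosin gene, fell by 1.91 and had the widest standard error of the 39 (0.32). Its WT arrays were at 5.28 and 4.40 and its KO3 arrays at 2.43, 3.26 and 3.11.

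The other locus-code genes have no description in the sources used here and are given by code. The largest rises were AT1G64590 (2.03 ± 0.30), AT1G62975 (1.93 ± 0.32) and AT3G56200 (1.72 ± 0.23). AT1G64590 was at 5.30, 5.48 and 6.06 in KO3 and at 3.81 and 3.35 in WT, with no overlap. AT1G62975 varied most within KO3, at 5.03, 6.44 and 5.81, against 3.78 and 3.88. AT5G26290 (1.44), AT3G23530 (1.40), AT1G52700 (1.33), AT3G09440 (1.24) and AT1G14630 (1.22) followed. AT4G09340 rose by 1.17, AT1G20070 by 0.94 and AT2G38160 by 0.89, the smallest rise called.

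The largest falls without a symbol were AT1G26790 (-1.95 ± 0.26), which was at 1.64, 1.63 and 1.74 in KO3 and at 3.84 and 3.40 in WT, and AT4G36850 (-1.68 ± 0.19), which was at 3.25, 3.01 and 3.18 against 4.85 and 4.80. For AT1G26790 the KO3 mean lay below the lowest median of a root array. AT4G27450 fell by 1.37, AT1G23120 by 1.21, AT4G09110 by 1.18, AT1G49032 by 1.14, AT5G15950 by 1.12 and AT1G80180 by 1.11. AT4G05150, AT2G44220, AT2G04690 and AT2G40590 fell by 0.80 to 1.01.

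No autophagy gene other than NBR1 was called. Of the 13 others measured 12 had a negative difference and 1 a positive one, with a median of -0.27. ATG8 proteins coat the autophagosome membrane and are the docking site for receptors such as NBR1. All 9 ATG8 probe sets were negative (median -0.35), and 6 of the 9 had every KO3 array below both WT arrays. Of all probe sets 11.8% showed that pattern. ATG8E was at 3.78, 4.02 and 3.94 in KO3 and at 5.17 and 4.53 in WT, a difference of -0.94 (adjusted p = 0.0961). ATG8F differed by -0.60, APG8H by -0.53 and APG8A by -0.36, while ATG8B differed by -0.03. The median of the 9 was -0.42 against WT replicate 3 alone and -0.24 against WT replicate 1 alone. This group was drawn out after the values had been seen. It can share genes with the 13 above, so those counts are not independent of each other.

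Several metabolic lists had members past the unadjusted threshold only. Among genes of glucosinolates and secondary metabolism 0 of 12 measured were called and 4 were higher at that threshold, which 2.4% of all probe sets met upward: CYP79F2 (1.06), SOT18 (0.74), NAI1 (0.74) and CYP79B2 (0.60). CYP79F2 and CYP79B2 encode enzymes of the first step of glucosinolate synthesis and SOT18 one of the last. The list as measured does not hold GSTF11, which was called. Of 5 sulphur-limitation genes all were positive (median 0.45), and LSU2, a marker of sulphur limitation, was at 3.5, 3.99 and 3.5 in KO3 and at 2.68 and 2.76 in WT (0.94, adjusted p = 0.112). Of 14 genes of sugar and dark starvation 3 were lower at that threshold, a share to set beside 1.84% of all probe sets. They were SEN1, a dark-induced gene (-1.75, adjusted p = 0.124), BCE2, of branched-chain amino acid breakdown (-0.99), and DIN10, a dark-inducible gene (-0.80). SEN1 was at 6.09 and 4.78 in the 2 WT arrays. SWEET16, a vacuolar sugar carrier gene, differed by 0.91. Of 7 iron-deficiency genes 6 were negative (median -0.21), with BHLH100 at -0.97 (adjusted p = 0.208).

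None of the genes measured for lateral root initiation (7, median 0.06), root hair and epidermis (10, median -0.03), endodermis, suberin and lignin (5, median 0.02), vascular tissue (4, median -0.04) and root cap and meristem (8, median 0.00) was called. The smallest p in these lists belonged to RALFL34 (0.27), GL3 (0.52), PAL1 (0.38), FTIP1 (-0.34) and PRL (0.56). Green-tissue genes had a median of -0.02 over 7 measured, with none called, LHCB4.2 leading at 0.36. The auxin list (9, MP 0.50), the ethylene list (5, EBF2 -0.67), the gibberellin and brassinosteroid list (4, RGL1 -0.30), the jasmonate list (9, PDF1.2b -0.45) and the salicylic acid list (7, NPR3 1.09) had no gene called either. The same held for oxidative stress (9, NDB2 0.91), heat shock (8, AT5G48570 0.64), nitrate (3, BT2 -0.24), phosphate (2, LPR1 0.22), the proteasome (2, CUL4 0.17) and aquaporins (2, NLM1 0.29). In all, 4 of 25 lists held a called gene, as did 5 of the 32 gene families with at least 5 members. Many lists were measured only in small part. Families were formed from symbols, synonyms and descriptions, while 83.3% of the probe sets tested carry a locus code alone. A called gene known by such a code may therefore belong to a list or family that does not count it.

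At the unadjusted threshold 434 probe sets were higher (2.4%) and 333 lower (1.84%), among them 110 and 43 single-gene probe sets not named by a nuclear locus code alone. The 43 include the plastid probe sets 13544928 and 13545049, which have no symbol and share the same values. The genes named from here were chosen after their values were seen, and none passed the adjusted threshold. Ion transport genes among the higher were HAK5, a high-affinity potassium transporter (1.32; 4.01, 4.72 and 3.79 in KO3 and 2.86 and 2.85 in WT), CHX16 (1.11) and KUP9 (0.92). ADC2, which encodes arginine decarboxylase of polyamine synthesis, differed by 1.15 and ADS2, a fatty acid desaturase gene, by 1.06. TPPG, a trehalose-phosphate phosphatase gene, differed by 1.42. HVA22D, an ABA-induced gene, differed by 1.19 (adjusted p = 0.0628). The lower genes included MGL (-0.91), of methionine breakdown.

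Transcripts of the plastid genome were drawn out after the values were seen. Of 70 probe sets 65 had a positive difference, with a median of 0.41, and none was called. The median signal of the group was 7.83, 8.27 and 8.15 in KO3, 7.65 and 7.87 in WT, and 7.70, 7.73 and 7.92 in KO1, so that KO3 and WT overlapped, with KO3 replicate 1 below WT replicate 3. Against WT replicate 3 alone the median change was 0.28. In KO1 roots the median change was 0.10, and the median difference between KO3 and KO1 was 0.33, positive in 66 of 70. In KO3 shoots it was -0.02. Some plastid probe sets share their values with another. Of 15 mitochondrial probe sets 13 were positive (median 0.37), but against WT replicate 3 alone the median was 0.06.

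KO1 carries another deletion in the same gene and was compared with KO3 directly, since both lines are set against the same WT arrays. No probe set passed the adjusted threshold for KO3 against KO1 in limma, and 595 had an unadjusted p under 0.05 (3.29%). This does not show that the lines were alike. The changes against WT are given side by side: RVE2 -2.35 in KO3 and -2.25 in KO1, GI 1.48 and 1.52, SIP1 1.47 and 1.40, LTI78 1.55 and 1.70, RR5 1.86 and 2.12, CYP735A2 1.10 and 1.00, bZIP58 -1.71 and -1.59. Of the 39 called in KO3, 9 had an unadjusted p under 0.05 for the difference between the lines. The same KO3 arrays had chosen the 39, which by itself can raise that count, so the count was not read as a difference between the lines. AT4G09110 was among the 9, at 4.50, 4.22 and 4.07 in KO3, 4.96, 4.83 and 5.01 in KO1 and 5.50 and 5.38 in WT. AT2G44220 fell by 1.00 in KO3 and differed by -0.34 in KO1, and AT1G64380 rose by 1.31 in KO3 and differed by 0.69 in KO1. NBR1 itself was 0.54 higher in KO3 than in KO1.

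Roots and shoots of KO3 were compared in 1 fit of all 17 arrays, in which the KO3 effect differed between the organs for 18 probe sets (0.0994%), a count that was 4 without WT replicate 1 and 11 without KO3 replicate 3. Of the 39 called in roots, 4 were among them. GI was the clearest: the KO3 shoots were at 4.82, 4.29 and 4.31 and the WT shoots at 6.02, 5.92 and 6.05, a difference of -1.52 where roots had 1.48. The root effect minus the shoot effect was 3.00 (adjusted p = 0.00429). The shoot difference alone had an adjusted p of 0.198. bZIP58 was between 1.44 and 1.67 in KO3 and WT shoots and its organ difference was -1.68 (adjusted p = 0.0281). CYP735A2 was between 1.12 and 1.31 there (1.10, adjusted p = 0.0441), and AT1G20070 differed by -0.60 in shoots and 0.94 in roots (organ difference 1.53, adjusted p = 0.0447). Both bZIP58 and CYP735A2 were low in shoots and hardly differed there (-0.03 and 0.0), so their organ difference mostly restates the root change. AT1G20070 was low in shoots too, between 1.58 and 2.87 in KO3 and WT. KO1 shoot replicate 1 lay far below KO1 shoot replicates 2 and 3 for some of the 39. COR47 was at 6.46 there against 8.83 and 8.54, while NBR1 was at 1.67 against 1.52 and 1.71. That array enters the spread used by the organ test and by the shoot test. No shoot array was left out in turn, so these counts may depend on it.

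**Figure D4:**
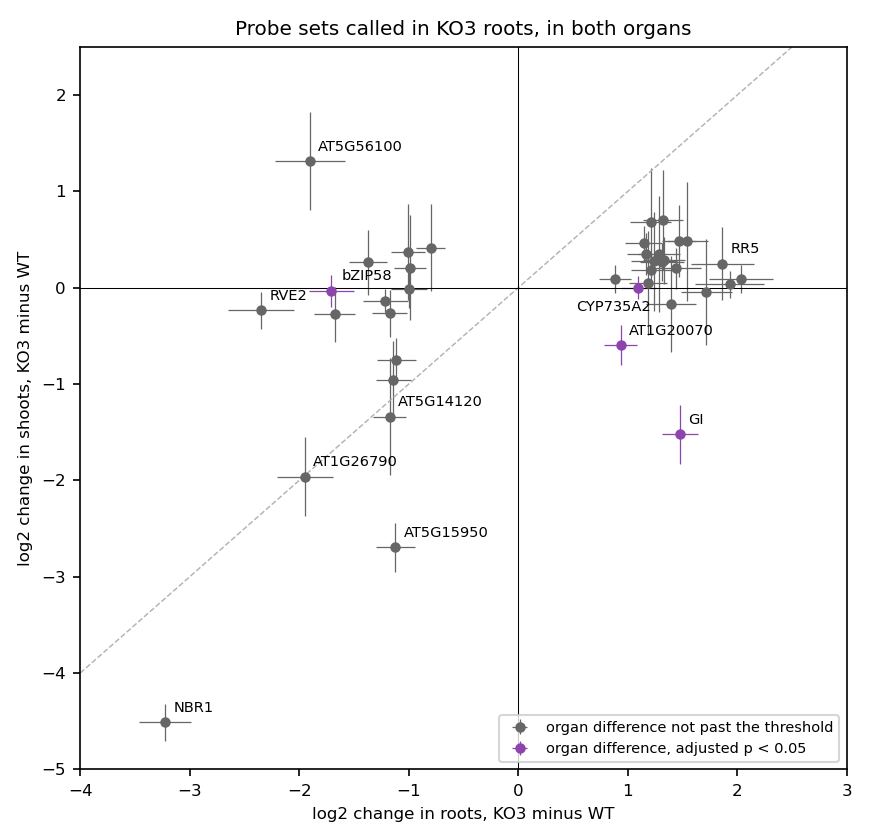
Log2 change in roots (horizontal axis) against log2 change in shoots (vertical axis), KO3 minus WT, for the 39 probe sets called in roots, with standard errors as bars and equality as a dashed line. Purple points are the 4 whose organ difference passed the adjusted threshold; GI lies at 1.48 in roots and -1.52 in shoots.

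Of the 39, 2 passed the threshold in shoots as well, where 1 of all probe sets was called higher (0.00552%) and 25 lower (0.138%). NBR1 differed there by -4.51, and AT5G15950 was at 3.91, 3.72 and 3.82 in KO3 shoots and at 6.58, 6.21 and 6.75 in WT shoots, a fall of 2.70 (adjusted p = 0.00704) beside its fall of 1.12 in roots. RVE2 was low in shoots of both lines (1.19 to 1.96), and its organ difference of -2.11 had an adjusted p of 0.0591. As root RNA came from whole roots, a change in the share of a cell type and a change in RNA per cell cannot be told apart. Nothing in the sources says more of how the replicates were separated than that they were biological replicates, and the p-values measure the spread between these arrays.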

How the data were processed

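The authors deposited RMA log2 signals of 28583 probe sets (2 decimals) from Affymetrix Arabidopsis Gene ST arrays, made with Transcriptome Analysis Console and the TAIR10 build, per the labels; versions, and whether organs were normalised together, are not given in the sources used here. The number of arrays limits the precision.

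Names came from the platform table (17504 probe sets) and the study's supplementary tables (603 more, genes that had changed in its overexpression line, so not a random part); 10476 were unnamed. Of 17349 single-gene probe sets 17271 matched the reference table (TAIR10.1, names only). limma 3.58.1 in R 4.3.3 (lmFit, eBayes) was fitted to the 8 root arrays, or all 17 for the organ difference, with Benjamini-Hochberg adjustment over 18107 probe sets and a threshold of 0.05. The looser threshold, an unadjusted p under 0.05 and 1.5-fold, follows the study's methods, whose three-way model was not used. Figures used Python 3.11.15, pandas 2.3.3, NumPy 2.4.6 and matplotlib 3.10.9. The fit was tested on simulated data.

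Members and lists were chosen with earlier results of these data known. The ATG8, type-A regulator and organelle groups were added after values were seen, and some list symbols and 1 family pattern were corrected then. Each gene had 1 probe set in lists, that with the highest mean. Named genes are NBR1, the 15 largest rises and 15 largest falls called with no overlap, list members called and the smallest p of other lists; others were chosen after values were seen. WT roots replicate 2 and promoter motifs were not analysed here. Alternatives covered normalisation, filters, moderation, weights, arrays in the fit, the replicate block and leaving out each root array.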

Additional observations from a re-analysis of the deposited data

Results flagged for a closer look

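In 4 genes called in KO3 roots the KO3 effect differed between roots and shoots by the interaction test in limma: GI (root effect minus shoot effect 3.00), bZIP58 (-1.68), AT1G20070 (1.53) and CYP735A2 (1.10). In KO3 and WT shoots bZIP58, AT1G20070 and CYP735A2 were low (at most 1.67, 2.87 and 1.31). When all 28583 probe sets were tested, the probe sets without a name, which the comparisons above do not use, held 18 called higher and 12 called lower in KO3 roots.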

How the results depend on the processing

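The 22 higher and 17 lower calls depended on the arrays and the model more than on scaling. Counts are given as higher and lower. Testing all probe sets gave 40 and 30, names from the platform table alone 9 and 11 (NBR1 is not in it), trend and robust options 34 and 47, array weights 12 and 9, only the 5 KO3 and WT root arrays 4 and 8, all 17 arrays 13 and 6, and the thresholds of the study's methods 434 and 333. An unmoderated linear model gave 0 and 0, with an adjusted p of 0.212 for NBR1 (-3.23). Leaving out 1 array gave 0 to 47 higher and 0 to 61 lower: without WT replicate 1 0 and 0, without WT replicate 3 47 and 61 (24 of the 39 remained), without KO3 replicate 1 21 and 8, without KO3 replicate 2 or 3 0 and 1, without KO1 replicate 1 3 and 7, and without KO1 replicate 2 9 and 10. An added alternative, chosen after seeing the data, the 5 arrays without WT replicate 1, gave 0 and 0 (NBR1 -3.14, adjusted p = 0.648). The lone WT array is then assumed to vary like the others. NBR1 ranged from -3.48 to -3.09 on leaving out 1 array and missed the threshold without WT replicate 1 (-3.14, adjusted p = 0.0532). No called gene changed direction under any alternative run; the cause of the lost calls was not tested.

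The replicate block gave 27 higher and 12 lower, of which 16 and 12 were among the main calls. Same-numbered KO3 and WT arrays correlated in their deviations at 0.11 and 0.10 and others between -0.11 and 0.03, but with 2 pairs the numbers were not taken as pairing the samples. The organ difference, 18 probe sets, became 76 with array weights, 13 with the replicate block and 4 to 16 on leaving out 1 root array (4 without WT replicate 1). KO3 against KO1 gave 0 under every alternative run. Promoter motifs were not run.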
